A study of Mus musculus with 49 samples.

Results

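Tbr1, Tle4, Foxp2, Syt6 and Hs3st4 are 5 genes used to recognise layer 6 corticothalamic neurons, and their levels were followed through 49 single neurons of the mouse somatosensory cortex. The genes are chosen by name, with no threshold on their values, and make up 5 of the 9020 genes in the table. The neurons were labelled in wild-type (WT) CD1 embryos at E13.5 with FlashTag, a fluorescent dye injected into the ventricle that marks progenitors dividing at its surface and their newborn daughter cells. Bright FlashTag+ cells were aspirated one by one through a patch pipette from brain slices at P7, and several cells were sequenced together in each library. All 49 cells are of 1 condition. The labels tie no cell to an animal, and the radial positions of the cells are not used here, so the cells count as 1 sample and are described without tests.

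Corticothalamic neurons are the excitatory neurons of layer 6 that send their axons to the thalamus and give feedback to it. They are born early in corticogenesis. Tbr1, a T-box transcription factor of early-born neurons, favours layer 6 identity and represses genes of the subcerebral programme such as Fezf2 and Bcl11b. Foxp2, a forkhead transcription factor, and Tle4, a Groucho-family co-repressor that binds no DNA itself, are kept in corticothalamic neurons after birth. Syt6 belongs to the synaptotagmins, membrane proteins of vesicle trafficking, and Hs3st4 encodes a 3-O-sulfotransferase that modifies heparan sulfate chains.

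The cells had been sequenced in 5 library pools of 9 to 12 cells, and a cell is named here by its number and its pool. Values are RPM, in which the reads of every cell are scaled to a common total, and the number of reads behind each value could be recovered. Cells differed in depth, from 209850 reads in the shallowest to 35342325 in the deepest (median 1240101), and the pool medians ranged from 814366 in pool 5 to 9870201 in pool 1. A single read was therefore worth 0.0283 RPM in the deepest and 4.77 RPM in the shallowest cell. A gene was counted as present in a cell at 10 RPM or more, a level that takes more than 1 read in every cell. A count of 0 reads allows up to 0.0849 RPM in the deepest and 14.3 RPM in the shallowest cell, and in 4 cells it allows more than 10 RPM. Each of the 9020 genes reaches 100 RPM in at least 2 cells, so a gene low in all cells would not be in the table. Every cell had at least 2 of 6 pan-neuronal genes, 40 had at least 2 of 6 excitatory genes, 12 had at least 2 of 7 inhibitory genes, and 8 cells had a hemoglobin share of 1% or more.

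The genes lie on 5 chromosomes of GRCm38 and are protein-coding. The sequences around the starts of transcription are shown for Tbr1, Tle4, Syt6 and Hs3st4, from RefSeq on GRCm38.p6. They run from 250 bases before to 50 after the most upstream start listed. The RefSeq set used held no sequence for Foxp2. Capitals mark TAATTA, the core recognised by many homeodomain proteins, and CACGTG, an E-box. The sequences are those of chr2:61804203-61804502 on the + strand for Tbr1, chr19:14598134-14598433 on the - strand for Tle4, chr3:103574995-103575294 on the + strand for Syt6 and chr7:123982578-123982877 on the + strand for Hs3st4.
Tbr1: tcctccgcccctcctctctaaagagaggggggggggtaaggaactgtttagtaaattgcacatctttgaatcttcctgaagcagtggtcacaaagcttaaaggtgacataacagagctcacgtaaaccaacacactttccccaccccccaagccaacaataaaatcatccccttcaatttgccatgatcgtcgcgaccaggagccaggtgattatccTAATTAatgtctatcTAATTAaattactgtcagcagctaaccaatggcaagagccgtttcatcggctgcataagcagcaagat
Tle4: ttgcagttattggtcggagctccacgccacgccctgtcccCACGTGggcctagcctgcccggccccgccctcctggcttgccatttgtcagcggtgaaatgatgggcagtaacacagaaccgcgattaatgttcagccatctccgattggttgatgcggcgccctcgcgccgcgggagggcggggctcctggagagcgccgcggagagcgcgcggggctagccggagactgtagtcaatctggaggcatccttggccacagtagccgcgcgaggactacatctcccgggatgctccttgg
Syt6: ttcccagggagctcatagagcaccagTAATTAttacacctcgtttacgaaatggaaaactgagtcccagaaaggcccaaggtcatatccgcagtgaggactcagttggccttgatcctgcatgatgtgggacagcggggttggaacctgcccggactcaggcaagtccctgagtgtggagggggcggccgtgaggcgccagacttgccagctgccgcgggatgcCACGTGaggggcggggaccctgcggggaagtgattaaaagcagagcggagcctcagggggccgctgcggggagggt
Hs3st4: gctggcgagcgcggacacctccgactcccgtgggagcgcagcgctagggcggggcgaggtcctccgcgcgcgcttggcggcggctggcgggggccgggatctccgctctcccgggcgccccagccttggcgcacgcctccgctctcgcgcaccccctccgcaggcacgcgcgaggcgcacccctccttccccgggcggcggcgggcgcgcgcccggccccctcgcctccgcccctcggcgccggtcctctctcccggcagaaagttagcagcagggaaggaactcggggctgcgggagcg

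The words are a description of these windows and were searched on both strands. TAATTA was found in the window of Tbr1, at -33 and -18 from the start, and in that of Syt6, at -224, and it occurs in 5.29% of all 32851 windows of this length. CACGTG was found at -210 for Tle4 and at -26 for Syt6, and occurs in 7.15% of windows. The T-box word GGTGTGA, held by 3.98% of windows, and the forkhead word TGTTTAC, held by 3.65%, were found in none of the 7 windows listed for the 4 genes. The windows of Tle4 and Hs3st4 held no TAATTA, and those printed for Tbr1 and Hs3st4 no CACGTG. No motif searched was shared by all 4.

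Tbr1 (chromosome 2, 61802930 to 61814114, + strand) ranged from 0 to 507 RPM, with a median of 3.10 RPM. It was present in 16 of 49 cells (32.7%, exact Clopper-Pearson 95% interval 19.95% to 47.5%), and 14 cells had no read of it. All intervals cover counting error only. It was at 100 RPM or more in 6 cells: 507 RPM in cell 1 of pool 4, 242 in cell 7 of pool 1, 178 in cell 1 of pool 2, 133 in cell 9 of pool 4, 116 in cell 7 of pool 5 and 109 in cell 3 of pool 4. Thus the high Tbr1 cells came from 4 of the 5 pools, and none from pool 3. The lowest value counted as present was 10.8 RPM and the highest below the limit 7.87 RPM. The next cells of high Tbr1 formed a graded series, and no gap separated cells with the gene from cells without it.

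Tle4 (chromosome 19, 14448150 to 14598051, - strand) ranged from 0 to 1106 RPM, with a median of 1.71 RPM. Presence was counted in 13 cells (26.5%, 14.95% to 41.1%) and had no read in 20. Its 6 highest values were 1106 RPM in cell 9 of pool 1, 1006 in cell 5 of pool 3, 791 in cell 3 of pool 1, 574 in cell 10 of pool 1, 262 in cell 4 of pool 3 and 168 in cell 3 of pool 5. The other 7 cells lay between 18.3 and 79.1 RPM. The top 5 cells held 89% of the summed RPM of Tle4, against 69% for Tbr1. The single highest cell held 26.2% for Tle4 and 29.6% for Tbr1, and each gene was at 100 RPM or more in 6 cells.

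Foxp2 (chromosome 6, 14901349 to 15441977, + strand) ranged from 0 to 1156 RPM, with a median of 6.25 RPM. It was present in 21 cells (42.9%, 28.8% to 57.8%), at 100 RPM or more in 12 of them, and 46 of 49 cells had at least 1 read. The highest value, 1156 RPM, was in cell 9 of pool 1, which also had the highest Tle4, and the next were 700 RPM in cell 5 of pool 3 and 645 RPM in cell 4 of pool 5. Of the 5 genes, Foxp2 was thus read in the most cells.

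Syt6 (chromosome 3, 103575231 to 103645569, + strand) was the rarest of the 5. It ranged from 0 to 756 RPM with a median of 0, and was present in 8 cells (16.3%, 7.32% to 29.7%). Those 8 values were 756 RPM in cell 9 of pool 1, 285 in cell 5 of pool 3, 244 in cell 10 of pool 1, 146 in cell 4 of pool 3, 91.0 in cell 3 of pool 4, 71.9 in cell 3 of pool 1, 45.7 in cell 7 of pool 3 and 13.01 in cell 8 of pool 4. Pool 5 had no Syt6 read in any of its 10 cells, which allows up to 0.219 RPM over the 13708808 reads of that pool. In pool 2 a single cell had Syt6 reads, at 0.0805 RPM.

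Hs3st4 (chromosome 7, 123982869 to 124398989, + strand) ranged from 0 to 537 RPM, with a median of 3.89 RPM. It was present in 21 cells (42.9%, 28.8% to 57.8%), as many as Foxp2, but 11 of the 21 lay under 50 RPM. Its highest values were 537 RPM in cell 10 of pool 1, 462 in cell 3 of pool 1, 456 in cell 3 of pool 5, 383 in cell 9 of pool 1, 332 in cell 7 of pool 5, 157 in cell 4 of pool 3 and 108 in cell 3 of pool 2. The first 4 of these cells were also among the 6 with the highest Tle4. The annotation has an antisense gene over Hs3st4 and a gene on the opposite strand over Syt6. Whether the counting used the strand is not given in the sources used here, so reads of such partners cannot be told apart.

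**Figure D1:**
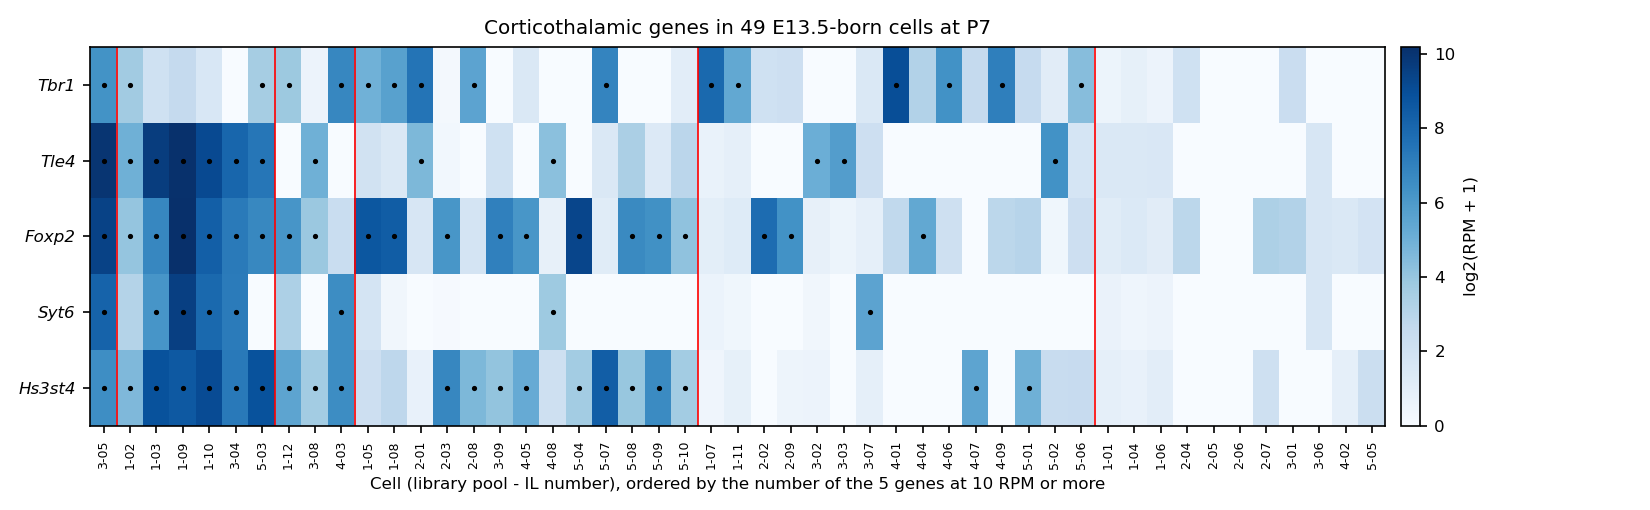
Level of the 5 genes (rows) in each of the 49 cells (columns, named by library pool and number), as log2(RPM + 1) in shades of blue, with a dot where the gene is at 10 RPM or more and red lines between cells with 5, 4, 3, 2, 1 and 0 of the genes. The left 7 columns, with 4 or 5 of the genes, hold all 6 values of Tle4 over 100 RPM, while the 3 highest Tbr1 values stand further right, in cells with 1 or 2 of the genes.

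Low read numbers of Syt6 and Tle4 differed between library pools. Syt6 had a read in all 12 cells of pool 1, although 9 of them were under 10 RPM, in 5 of 9 cells of pool 3, 2 of 9 of pool 4, 1 of 9 of pool 2 and none of pool 5. Over the pools that held a cell at 100 RPM or more, 11 of 21 cells had Syt6 reads below 10 RPM, against 1 of 28 cells in the other pools. For Tle4 the numbers were 15 of 31 and 1 of 18. For Tbr1 they were 16 of 40 and 3 of 9, for Hs3st4 15 of 40 and 2 of 9, and for Foxp2 19 of 40 and 6 of 9. Pools with a high cell of Syt6 include the deepest, and the part of depth and of reads passed between cells of a pool in these low values was not tested.

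C1qb, a complement gene of microglia that neurons should lack, was counted in the same cells for comparison. It had a read in 38 cells (77.6%) and was present at 10 RPM in 11 (22.4%, 11.8% to 36.6%). At 1 read, the shares of Tbr1 (71.4%), Tle4 (59.2%) and Syt6 (40.8%) were not above it, that of Hs3st4 was equal to it, and that of Foxp2 (93.9%) was above it. At 10 RPM, the share of Syt6 lay below that of C1qb, and the interval of C1qb overlapped those of all 5 genes. Since all were counted in the same cells, this overlap is no test of a difference. Other microglial genes of the list gave other levels, since Aif1 was present in 21 cells, Tyrobp in 16, C1qc in 9, C1qa in 8 and Csf1r and P2ry12 in 7 each. Which of the 5 genes lie above this level therefore depends on the gene set beside them, and none was present in more cells than Aif1.

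The reads of each cell were also set against those of the same gene in the other cells of its pool. For 84 genes, each at 100 RPM or more in exactly 2 cells, reads in the other cells of their pools were measured. These held on average 0.177% of the reads of the high cells, and 3.73% at the 99th percentile of 1318 cases. The 84 genes were chosen to be under 10 RPM in all other cells. Exchange that lifts a cell to 10 RPM was thus left out, and values of 10 RPM may exceed the percentile by construction. Whether reads over the percentile were passed between cells was not tested. All 8 cells with Syt6 exceeded that percentile, as did 11 of 13 with Tle4 (among them cell 8 of pool 4, in whose pool no other cell had a Tle4 read), 11 of 16 with Tbr1, 16 of 21 with Foxp2 and 13 of 21 with Hs3st4. The largest loss was thus in Hs3st4. Cell 2 of pool 1, of 258130 reads, had 4 of the genes at 10 RPM, on 3 reads of Tbr1, 8 of Tle4, 4 of Foxp2 and 6 of Hs3st4, with 2 reads of Syt6 (7.75 RPM). These 4 read numbers were between 0.0299% and 0.0567% of the reads of the same genes in the other cells of its pool. Cell 12 of pool 1, of 225363 reads, had 3 reads of Tbr1, 16 of Foxp2, 2 of Syt6, 10 of Hs3st4 and none of Tle4. Whether the reads of these shallow cells came from their own RNA was not tested.

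**Figure D2:**
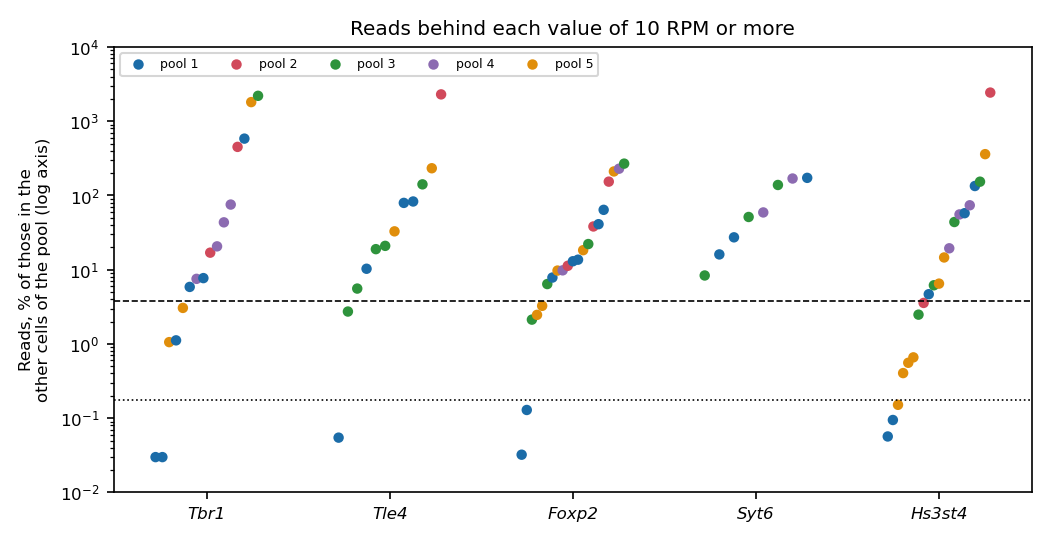
Reads behind the values of 10 RPM or more, as a percentage of the reads of the same gene in the other cells of the pool (log axis), with 1 point per cell coloured by pool, for the 5 genes, leaving out Tle4 in cell 8 of pool 4, where the other cells had 0 reads. The dotted line is the average of 0.177% and the dashed line the 99th percentile of 3.73%, and all points of Syt6 lie over the dashed line while several of Hs3st4 and the shallow cells of pool 1 lie below it.

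The 5 genes were not present in the cells as a set. Of the 49 cells, 11 had none of them at 10 RPM, 15 had 1, 13 had 2, 3 had 3, 6 had 4 and 1 had all 5. At least 2 genes were present in 23 cells (46.9%, 32.5% to 61.7%) and at least 3 in 10 cells (20.4%, 10.2% to 34.3%). There were 17 combinations. The most common after no gene were Foxp2 with Hs3st4 in 7 cells, Tbr1 alone in 6 cells, and Tle4, Foxp2, Syt6 and Hs3st4 without Tbr1 in 4 cells. Cells 5 and 6 of pool 2 had no read of any of the 5. The numbers depend on the limit, and 5 cells had at least 3 genes when the 12 cells of pool 1 were left out.

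Tle4, Foxp2 and Hs3st4 were present together in 8 cells, of which 5 also had Syt6 and 3 also had Tbr1. In cell 9 of pool 1 the values were 1106 RPM for Tle4, 1156 for Foxp2, 756 for Syt6 and 383 for Hs3st4, with Tbr1 at 4.85. In cell 5 of pool 3 they were 1006, 700, 285 and 89.97 RPM in the same order, with Tbr1 at 78.5, which was the only cell with all 5 genes. In cell 10 of pool 1 they were 574, 320, 244 and 537 RPM, with Tbr1 at 1.95. These 3 cells were high in the 4 genes at the same time, with Tbr1 at very different levels.

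Cell 3 of pool 1 had 791 RPM of Tle4, 108 of Foxp2, 71.9 of Syt6 and 462 of Hs3st4, with Tbr1 at 3.10, and cell 4 of pool 3 had 262, 153, 146 and 157 RPM in the same order, with no Tbr1 read. Cell 3 of pool 5 had 168 RPM of Tle4, 106 of Foxp2 and 456 of Hs3st4 with no Syt6 read, and Tbr1 at 10.8. The other 2 cells were low in all: cell 8 of pool 3 had 30.8 RPM of Tle4, 13.48 of Foxp2 and 11.6 of Hs3st4, and cell 2 of pool 1 is the shallow cell described above. All 6 cells with Tle4 at 100 RPM or more thus had Foxp2 and Hs3st4 at 50 RPM or more, whereas Foxp2 at 100 RPM or more was found in 12 cells. The 8 cells came from pools 1, 3 and 5, and 4 were left without the 12 cells of pool 1 and 5 without the 9 of pool 3.

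Tbr1 was about as common in cells with any of the other 4 genes as in all cells. Of its 16 cells, 10 had at least 1 of the other 4 genes, against 32 of all 49, and 6 had none. Syt6 was present in 2 of the 16, against 8 of all 49. Of the 6 cells with Tbr1 at 100 RPM or more, 3 had none of the other 4. Tle4 reached 100 RPM in none of these 6, against 6 of all 49 cells. Cell 1 of pool 4, with 507 RPM of Tbr1, had no read of Tle4, Syt6 or Hs3st4 and 5.45 RPM of Foxp2, at 366983 reads. Cell 7 of pool 1, the deepest of all with 8567 reads of Tbr1 (242 RPM), had 0.623 RPM of Tle4, 1.05 of Foxp2, 0.538 of Syt6 and 0.340 of Hs3st4. Depth therefore did not limit the other 4 genes in that cell. Of the 6 cells with Tbr1 alone, 3 were from pool 4. Of the 32 cells with at least 1 of the other 4 genes, 10 had Tbr1 at this limit, against 16 of all 49 cells.

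Pearson's r of log2(RPM + 1) over the 49 cells describes the same pattern for all 10 pairs. The cells share library pools and differ in depth, and no p-value is given. Tle4 and Syt6 had the highest r, 0.67, and were present together in 6 cells, which is 46.2% of the cells with Tle4 and 75.0% of those with Syt6. The r was 0.54 for Syt6 and Hs3st4, 0.53 for Tle4 and Hs3st4, 0.53 for Foxp2 and Hs3st4, 0.41 for Foxp2 and Syt6 and 0.37 for Tle4 and Foxp2. Foxp2 and Hs3st4 shared the most cells, 16, which is 76.2% of the cells of each. The median over these 6 pairs was 0.53.

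The 4 pairs with Tbr1 had r of -0.08 with Tle4, -0.00 with Foxp2, 0.06 with Syt6 and 0.01 with Hs3st4. Tbr1 was present with Tle4 in 4 of its 16 cells, which is 30.8% of the 13 with Tle4, and with Syt6 in 2. With the values of each pool centred on the mean of the pool, the median over the 6 pairs was 0.53, and Tle4 with Syt6 had 0.65. Without pool 1, which held 3 of the 5 highest Tle4 cells, the median over the 6 pairs was 0.31, and with Spearman's rho it was 0.37. Under 13 alternatives the median over the 4 pairs with Tbr1 stayed between -0.10 and 0.07. None of the 5 genes followed depth closely, with r of log10 reads between -0.159 for Foxp2 and 0.179 for Tle4. With the number of genes detected in a cell, r lay between -0.049 for Tbr1 and 0.291 for Tle4, and was 0.195 for Hs3st4.

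**Figure D3:**
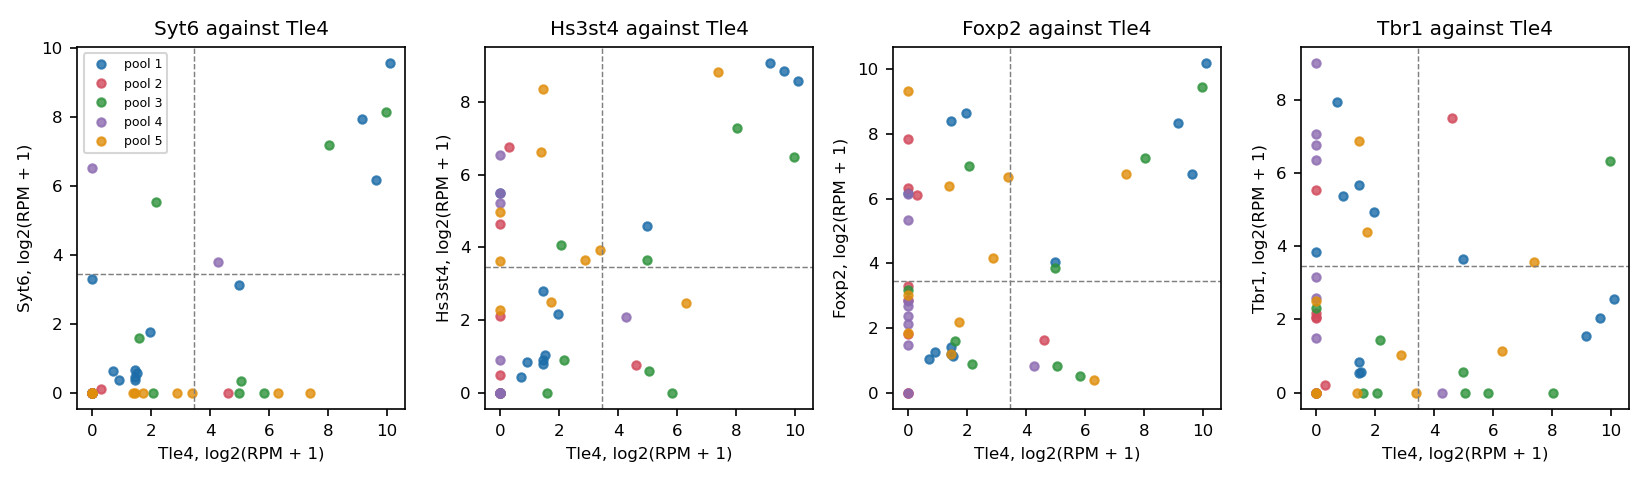
Level of Syt6, Hs3st4, Foxp2 and Tbr1 (vertical axes) against Tle4 (horizontal axes) in the 49 cells, on a log2(RPM + 1) scale, coloured by library pool, with dashed lines at 10 RPM. The cells of highest Tle4 stand at the upper right with Hs3st4 and Foxp2, all but 1 of them with Syt6. In the last panel the cells of highest Tbr1 stand at the left, except cell 1 of pool 2, which has 23.7 RPM of Tle4.

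**Figure D4:**
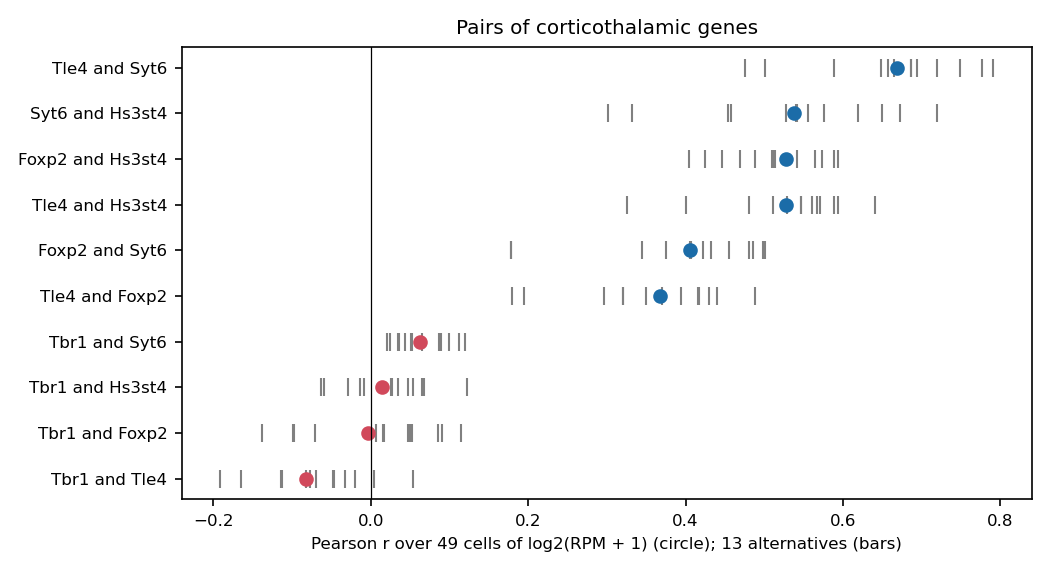
Pearson r over 49 cells for each of the 10 pairs (circles, blue for pairs among Tle4, Foxp2, Syt6 and Hs3st4 and red for pairs with Tbr1), with grey bars for 13 alternatives in the scale, the measure, the cells or the pools. The 6 blue circles lie between 0.37 and 0.67 and the 4 red circles between -0.08 and 0.06.

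These values were read against all genes present in at least 10 cells. An r of 0.4 or more with Tle4 was reached by 77 of 7419 genes (1.04%), and by 2 of the other members, Syt6, which was itself present in too few cells to be counted among the 7419, and Hs3st4. With Syt6 it was reached by 21 of 7420 genes (0.283%) and by 3 of the 4 members. With Hs3st4 it was reached by 29 genes (0.391%) and by 3 members, and with Foxp2 by 10 genes (0.135%) and by 2 members. With Tbr1 it was reached by 12 genes (0.162%) and by 0 of the 4 members. Without pool 1, Tle4, Foxp2, Syt6 and Hs3st4 each kept 1 other member at 0.4 or more, from the pairs of Tle4 with Syt6 (0.48) and Foxp2 with Hs3st4 (0.40). The median r over all genes was between -0.08 and 0.07 for each of the 5.

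The genes most like each member are given as a description over 49 cells. For Tbr1 they were Fam8a1 (r = 0.50), Map1lc3a (0.50), an autophagy gene, Neurod6 (0.48), a transcription factor of cortical excitatory neurons, Kdm6a (0.46), a histone demethylase, and Cryab (0.45), a small heat shock protein. Neurod6 was present in 14 of the 16 cells with Tbr1 and reached its maximum of 1458 RPM in the cell of highest Tbr1. No member was among the 5 nearest of Tbr1. For Tle4 they were Npy (0.57), the neuropeptide Y gene, Stx18 (0.54), a syntaxin, Adcyap1 (0.53), which encodes the neuropeptide PACAP, and the little described 5430416N02Rik and Gm35040 (0.53 each). Syt6 had a higher r with Tle4, 0.67, but was present in too few cells to be ranked.

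Hs3st4 (0.53) was the gene nearest to Foxp2, followed by Nfia (0.51), a nuclear factor I transcription factor, Hspa5 (0.43), an endoplasmic reticulum chaperone, Gm42715 (0.43) and Tcf7l2 (0.43), a Wnt pathway transcription factor. Tle4 (0.67) was nearest to Syt6, followed by Phf21a (0.55), Hs3st4 (0.54), the receptor tyrosine kinase gene Kit (0.50) and the zinc finger gene Tshz3 (0.49). Hs3st4 had Ipcef1 (0.59), Tle4 (0.53), Foxp2 (0.53), Rundc3b (0.49) and Trbc2 (0.48). Members thus stood among the 5 nearest genes of Foxp2, Syt6 and Hs3st4 by Pearson's r, over genes present in at least 10 cells. Without that filter, Syt6 also stood among the 5 nearest genes of Tle4 and of Hs3st4. With the filter and Spearman's rho, a member stood among the 5 nearest genes of Foxp2 alone. By that measure, 0 of the 5 nearest genes of Tle4 and of Syt6 were shared with the lists given here. Averaged over the 5 members, r was highest for Trbc2 (0.38), followed by Nfia (0.35), Crcp and Rundc3b (0.32 each), Rprm (0.31), Npy, Agap1, Tshz3, Ldb2 and Twistnb (0.29 to 0.30).

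Of 20 other genes listed for layer 6 corticothalamic and deep-layer neurons, 17 are in the table and 13 were present in at least 10 cells. Their median r was 0.23 with Tle4, 0.15 with Hs3st4, 0.13 with Foxp2, 0.11 with Syt6 and 0.02 with Tbr1. Only Nfia reached 0.4, with r of 0.45 with Tle4, 0.51 with Foxp2 and 0.41 with Syt6. Without pool 1 these were 0.31, 0.37 and 0.20, and centred within pools 0.33, 0.49 and 0.34. Nfia was present in 43 cells, in all 21 with Foxp2 and in all 8 with Tle4, Foxp2 and Hs3st4, at 17.8 to 768 RPM. Rprm, a layer 6 marker named for its part in cell cycle arrest, was present in 36 cells and in all 8, at 70.8 to 1777 RPM. The transcription factor gene Sox5 was present in 22 cells and in 6 of the 8, and the neurotensin receptor gene Ntsr1, whose promoter drives a widely used corticothalamic Cre line, in 10 cells and 2 of the 8.

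Nfib, a close relative of Nfia, had r of -0.35 with Tbr1 and 0.23 with Tle4. It was present in 7 of the 16 cells with Tbr1 and in 10 of the 13 with Tle4, against 33 of all 49. Foxp1 was present in 46 cells and in all 8, so its presence did not separate cells. Dkkl1, found in 13 cells, was in none of the 8.

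The layer 6b and subplate list had 4 of its 10 genes in the table. Cplx3, a complexin of subplate and layer 6b neurons, was present in 8 cells, 4 of them among the 8 with Tle4, Foxp2 and Hs3st4. There it was at 1247 RPM in cell 9 of pool 1, 598 in cell 5 of pool 3, 335 in cell 3 of pool 1 and 108 in cell 4 of pool 3. Its r was 0.63 with Tle4, 0.62 with Syt6, 0.37 with Foxp2, 0.34 with Hs3st4 and -0.09 with Tbr1. Under 13 alternatives the r with Tle4 lay between 0.52 and 0.70 and that with Syt6 between 0.51 and 0.73. Cplx3 was in too few cells to be ranked among the nearest genes. The other 3 genes had r under 0.2 with Tle4 and Syt6.

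**Figure D5:**
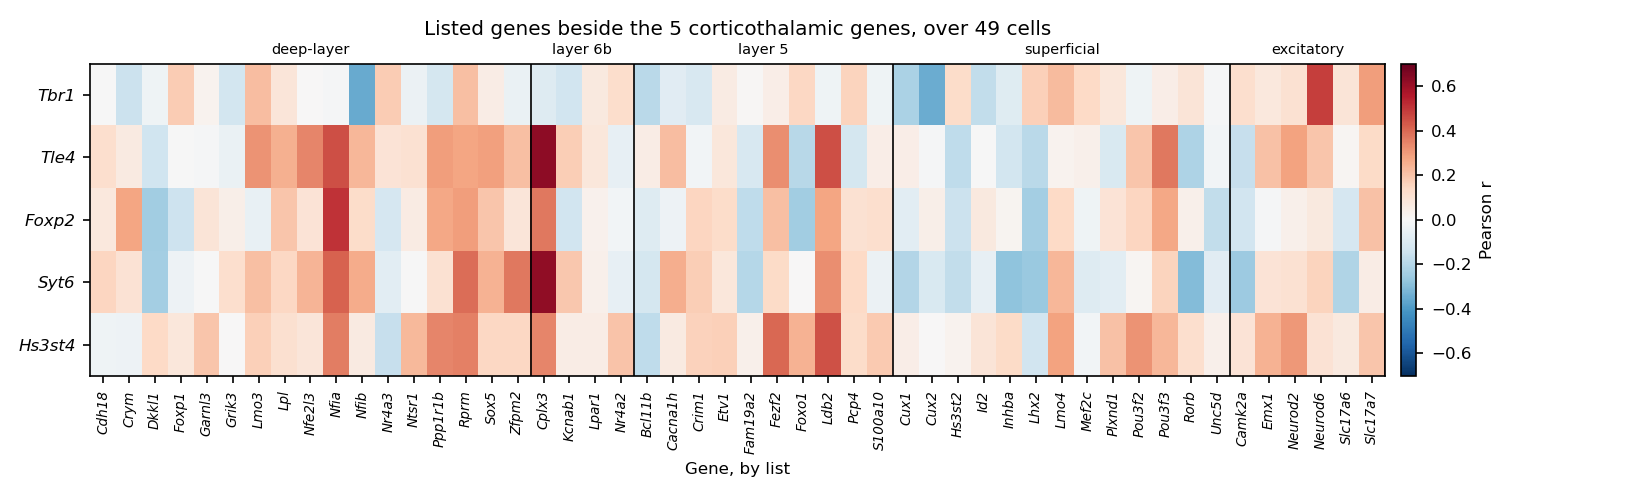
Pearson r over 49 cells of log2(RPM + 1) between each of the 5 genes (rows) and the listed genes of deep-layer, layer 6b, layer 5, superficial and excitatory neurons (columns), from blue (negative) to red (positive). Cplx3 (0.63 with Tle4 and 0.62 with Syt6), Nfia, Ldb2 and Fezf2 are red for Tle4 or Hs3st4 and near white for Tbr1, whose darkest square is Neurod6 (0.48).

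Some genes of layer 5 subcerebral neurons were found in the same cells. Of 13 listed, 10 are in the table, and the median r of the 8 present in at least 10 cells was 0.17 with Hs3st4, 0.11 with Foxp2 and under 0.05 with the other members. Fezf2, a transcription factor that specifies subcerebral neurons and is also made in layer 6, had r of 0.40 with Hs3st4 and 0.05 with Tbr1. It was present in 13 cells and in 4 of the 8 with Tle4, Foxp2 and Hs3st4, at up to 211.5 RPM. Ldb2, a LIM domain cofactor, had r of 0.45 with Tle4 and with Hs3st4 and was present in 6 of the 8. Bcl11b, which is needed for corticospinal axons, had r between -0.19 and 0.05 with the 5 genes and was present in 5 of 16 cells with Tbr1, 7 of 13 with Tle4 and 20 of all 49.

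Genes of superficial and intracortical neurons had median r between -0.08 and 0.07 with the 5, over 12 of 14 genes. With Tbr1, Cux2 had -0.35 and Cux1 -0.22, and Cux1 was present in 8 of 16 cells with Tbr1 and 26 of all 49. Rorb, a layer 4 gene, had -0.31 with Syt6. Lhx2 and Inhba, present in 19 and 9 cells, were in none of the 8 cells with Tle4, Foxp2 and Hs3st4. Other genes of the list were found there. Cux1, Cux2 and Rorb, present in 26, 24 and 30 of all 49 cells, were each in 4 of the 8. Pou3f3, a POU domain transcription factor, was present in 29 cells, in 12 of 13 with Tle4 (r = 0.37) and in 7 of the 8, and Pou3f2 had r of 0.32 with Hs3st4. Id2 was in 7 of the 8, and Lmo4 and Mef2c, present in 40 and 49 cells, were in all 8. The 2 near-projecting genes in the table, Tshz2 and Lypd1, had r between -0.23 and 0.15.

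Relatives of the 5 genes had r under 0.4 with the member of their family, a level that at most 1.04% of all genes reached with any member. Tle1 and Aes of the TLE family had r of -0.03 to -0.09 with Tle4. Foxp1 had -0.14 with Foxp2. None of the other synaptotagmins in the table reached 0.4 with Syt6, which 0.283% of all genes did. The highest r was 0.36, for Syt16, above the 99th percentile of all genes with Syt6, 0.345. Syt16 was present in all 8 cells with Syt6 and in 31 of all 49. Hs3st2, a gene of superficial neurons from the same enzyme family as Hs3st4, was present in 27 cells and had r of 0.03 with Hs3st4, with 13 cells in common. Tbr1 was the only T-box gene of the 3 listed that the table holds.

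Excitatory genes were present in the cells with these 5 genes, and so were genes of other cell types. At least 2 excitatory genes were present in 16 of 16 cells with Tbr1, 12 of 13 with Tle4, 18 of 21 with Foxp2, 6 of 8 with Syt6 and 19 of 21 with Hs3st4, against 40 of 49. All 8 cells with Tle4, Foxp2 and Hs3st4 had Neurod6, at 10.8 to 1364 RPM, against 36 of all 49 cells. Slc17a7, the vesicular glutamate transporter, was present in 4 of the 8, against 29 of all 49. At least 2 of the 7 inhibitory genes Gad1, Gad2, Slc32a1, Lhx6, Dlx1, Dlx2 and Dlx5 were present in 2 cells with Tbr1, 5 with Tle4, 4 with Foxp2, 2 with Syt6 and 4 with Hs3st4, against 12 of 49. On a wider list of 12, which adds Npy and Sst among others, at least 2 genes were present in 10 of 16 cells with Tbr1, 10 of 13 with Tle4, 18 of 21 with Foxp2, 6 of 8 with Syt6 and 16 of 21 with Hs3st4, against 35 of 49, and in 6 of the 8 cells with Tle4, Foxp2 and Hs3st4. Of these 12 genes, 8 were in at least 10 cells, with a median r of -0.22 with Tbr1 and 0.08 with Tle4.

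Npy is on that inhibitory list too. It was present in 22 cells, in 11 of the 13 with Tle4 and in all 8 with Tle4, Foxp2 and Hs3st4, at 58.1 to 1270 RPM. Of the 22 cells, 15 did not have 2 of the 7 inhibitory genes, and 7 of those 15 had Tle4. Without the cells that had 2 or more inhibitory genes, r of Npy and Tle4 was 0.60. Of the 8 cells, cell 8 of pool 3 had 135 RPM of Gad2, cell 3 of pool 5 had 12.6 of Gad1 and 10.8 of Slc32a1, and cell 9 of pool 1 had 324 of Slc32a1. The other 5 had Gad1, Gad2 and Slc32a1 under 10 RPM.

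Glial reads were also found in those 8 cells. Aqp4, of astrocytes, was at 1149 RPM in cell 9 of pool 1, and C1qb at 886 in cell 8 of pool 3. Cell 3 of pool 1 had 48.2 RPM of Aqp4 and 81.1 of C1qb, and cell 2 of pool 1 had 11.6 of C1qb. Cells 4 and 5 of pool 3, cell 10 of pool 1 and cell 3 of pool 5 were under 10 RPM for both. At least 2 astrocyte genes were present in 5 of the 8, against 31 of 49, and at least 2 microglial genes in 3, against 17 of 49. C1qb had r of -0.42 with Tbr1. The 4 hemoglobin genes had a median r of 0.23 with Tbr1 and -0.19 with Tle4, and cell 1 of pool 4, the highest in Tbr1, had 11.7% hemoglobin reads. The part of RNA from other cells in the values of the 5 genes was not tested. Without the cells of at least 1% hemoglobin the median r of the 6 pairs was 0.48, and without those with at least 2 inhibitory genes it was 0.54.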

How the data were processed

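The authors made cDNA of each aspirated cell with a 3′ SMART-Seq kit without molecular identifiers and pooled several cells in each library. Per the submitters' processing notes, STAR, HTSeq and mm10 were used, and versions and annotation are not given in the sources used here. The deposited values are RPM, set by the authors. The step between low values of a cell gave the worth of 1 read, and of 314114 values over 0, 100% were whole reads to within 0.01. Totals are those that RPM refers to.

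With 1 condition and no animals named, no count test was run. Presence meant at least 10 RPM, with exact Clopper-Pearson intervals at 95%. Patterns were compared by Pearson's r of log2(RPM + 1), with a pseudocount of 1, with the 7420 genes at 10 RPM or more in at least 10 cells (4 of the 5 members pass). Doublets were not called, since cells were aspirated singly. The members and lists, and the motifs, were chosen with earlier results of these data known. Cells with Tle4, Foxp2 and Hs3st4, or with Tbr1 alone, and the genes named there, were chosen after their values were seen. Otherwise named genes are the 5 members, listed genes, families, the 5 genes nearest each member and the 10 of highest mean r. Exchange was estimated from genes at 100 RPM or more in exactly 2 of all 49 cells and under 10 RPM in every other cell. In each pool with such a high cell, the reads of the other cells were divided by those of the high cells. Coordinates are GENCODE M21 on GRCm38. 2 further listed genes are not reported here, 1 of them with the marker list that contains it. The scripts were tested on simulated data. Python 3.11.15, pandas 2.3.3, scipy 1.17.1, R 4.3.3 and edgeR 4.0.16 were used, the last for TMM factors.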

Additional observations from a re-analysis of the deposited data

How the results depend on the processing

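Another limit for presence moved the shares of cells by its construction. At 1 read they were 71.4% for Tbr1, 59.2% for Tle4, 93.9% for Foxp2, 40.8% for Syt6 and 77.6% for Hs3st4. At 1 RPM they were 61.2% for Tbr1, 53.1% for Tle4, 83.7% for Foxp2 and 59.2% for Hs3st4, and at 100 RPM 12.2% for Tbr1 and for Tle4, 24.5% for Foxp2 and 14.3% for Hs3st4. Thinning to 358412 reads in 44 cells left an expected share with a read of 51.7% for Tbr1, 45.5% for Tle4, 69.9% for Foxp2 and 59.1% for Hs3st4, and counting only reads over the 99th percentile of exchange left 26.5% for Hs3st4.

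At least 2 genes were present in 47 cells at 1 read, 44 at 1 RPM, 7 at 100 RPM and 14 over the exchange limit. At least 3 were in 34, 27 and 6 cells at 1 read, 1 RPM and 100 RPM, and in 5 without pool 1. Counts without a pool are over fewer cells. Tle4, Foxp2 and Hs3st4 were together in 27 cells at 1 read, 13 at 10 reads, 17 at 1 RPM and 5 at 100 RPM, and in 4 without pool 1 and 5 without pool 3. Tbr1 without the other 4 was found in 0 cells at 1 read and at 1 RPM, and in 3 at 10 reads and without pool 4. The median r of the 6 pairs was 0.37 as Spearman's rho and 0.31 without pool 1, and the cause was not tested. That of the 4 pairs with Tbr1 was -0.10 without the cells with at least 2 inhibitory genes. Of 130 values of single pairs, 106 moved by at most 0.1, 24 by more and 0 turned from an r of 0.4 or more to below 0. Pairs with an r under 0.4 could not turn by this rule. Some pairs near 0 changed sign, as Tbr1 with Tle4 from -0.08 to 0.05 without pool 4. Between 0 and 5 of the 5 nearest genes of a member were shared across 4 settings, with 0 for Tle4 and for Syt6 with Spearman's rho. Leaving out shallow cells, cells with inhibitory genes or cells with hemoglobin was chosen after seeing the data. No paired analysis was possible because there is only 1 group. Depth limits the genes at 0 reads in shallow cells, and a cell's radial position was not analysed here.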
